A study of Mus musculus with 12 samples.

Results

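Hox genes encode homeodomain transcription factors and lie in 4 clusters, Hoxa to Hoxd. They are described here in the femurs of wild-type mice and of mice with a conditional deletion of Dlx3. Members were all gene symbols made of Hox, a cluster letter and a number, with the transcripts of a symbol summed. There were 36 such genes among the 19510 symbols in the deposited tables, 35 in the table of the metaphysis and 36 in that of the diaphysis. The reference annotation holds 39, and Hoxb13, Hoxd11 and Hoxd12 were not analysed here, nor was Hoxc12 in the metaphysis. The samples were RNA from the femoral diaphysis (the shaft) and metaphysis (the flared end beside the growth plate) of 5-week-old male mice of mixed strain background. Controls were labelled wild type (WT). Mutants were labelled Dlx3Oc-cKO (cKO from here on), in which, as known of the study, Cre recombinase under the osteocalcin promoter removes Dlx3 from bone-forming cells that have reached the mature osteoblast stage, so other cells of the sample keep the gene. Each of the 4 groups held 3 libraries, and nothing in the labels says that these came from separate animals, so the p-values measure only the spread between these libraries.

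As background, the genes of a cluster are numbered by paralog group, and members of different clusters with the same number descend from a common ancestor. In the embryo low-numbered genes are switched on early and anteriorly and high-numbered ones late and posteriorly, and in the limb the groups from 9 upward pattern the upper arm and thigh, the forearm and shank, and the hand and foot in turn. Skeletal cells of adult bones keep part of this code, and several Hox genes, Hoxa9, Hoxa10 and Hoxb4 among them, are also known from blood stem and progenitor cells, which a piece of femur with its marrow contains. In bulk tissue, fewer cells of a type and less RNA per cell cannot be told apart.

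Values are RPKM, which corrects read numbers for transcript length and for library depth, so that levels of different genes can be set against each other per length. The 2 regions were in separate tables and were tested separately. The lowest values put the depth at 24.8 to 35.0 M reads (M, mega) per metaphysis library and 18.6 to 54.3 M reads per diaphysis library, where 1 RPKM on a transcript of 2 kb corresponds to 49.5 to 69.9 and 37.2 to 109 reads. Dlx3, the targeted gene, was at 8.37, 8.90 and 10.1 RPKM in the metaphysis WT libraries and 1.98, 2.80 and 3.24 RPKM in the cKO libraries, and at 3.22, 7.64 and 13.1 against 0.763, 1.55 and 1.17 RPKM in the diaphysis, with no overlap in either region. Osteoblast markers (Runx2, Sp7 and Col1a1 among them) were present in every library. Diaphysis WT replicate 1 stood apart: globin took 32.6% of its summed RPKM, its summed osteoblast markers were 4572 RPKM against 18886 and 26969 RPKM in the other WT libraries, and its Hox genes summed to 16.7 RPKM against 45.1 and 49.4 RPKM. WT levels, genotype differences and region comparisons of the diaphysis are therefore also given without it.

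Most Hox genes were low. In the metaphysis 17 of 35 reached 1 RPKM in at least 3 of the 6 libraries, and in the diaphysis 13 of 36, all 13 of which were among the 17. The 4 that reached it in the metaphysis only were Hoxa2, Hoxa3, Hoxa4 and Hoxc5. Counting any single library of the 12, 22 genes reached 1 RPKM and 14 did not. Those below it included Hoxb5, Hoxb6, Hoxb8 and Hoxb9 in the middle of the Hoxb cluster, Hoxd3, Hoxd4 and Hoxd10 in the Hoxd cluster, and the group 13 genes Hoxa13, Hoxc13 and Hoxd13. By cluster, the metaphysis kept 7 of 11 Hoxa genes, 3 of 9 Hoxb genes, 6 of 8 Hoxc genes and 1 of 7 Hoxd genes, and the diaphysis 4 of 11, 3 of 9, 5 of 9 and 1 of 7. The 5 genes Hoxa10, Hoxb4, Hoxc6, Hoxc10 and Hoxd8 were at 1 RPKM or more in all 6 libraries of the diaphysis, and 14 genes were so in the metaphysis.

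In WT metaphysis Hoxc10, a group 10 gene known from hindlimb patterning, was highest, at 7.98, 11.2 and 7.78 RPKM. All of these lay above the libraries of the next gene, Hoxb2 (5.32 ± 1.77 RPKM, SD, n = 3). Hoxb2, known from hindbrain patterning, overlapped with Hoxa10 (4.88 ± 0.24 RPKM), and Hoxa10 with Hoxc6 (4.2 ± 0.5 RPKM). Below a gap came Hoxb3 (2.65 ± 0.66 RPKM) and Hoxd8 (2.49 ± 0.48 RPKM), which overlapped with each other, and below another gap Hoxa9 (1.82 ± 0.04 RPKM). From Hoxa9 down no neighbours in the order were separated. In WT diaphysis the order began with Hoxc10 (6.45 ± 2.83 RPKM), Hoxa10 (5.07 ± 2.61 RPKM), Hoxc6 (3.42 ± 2.01 RPKM) and Hoxd8 (2.27 ± 1.20 RPKM), and every gene overlapped with the next. Without WT replicate 1 the first 3 were Hoxc10 (7.84 and 8.32 RPKM), Hoxa10 (6.14 and 6.98 RPKM) and Hoxc6 (5.03 and 4.06 RPKM), each separated from the next, and Hoxc9 (2.45 and 3.27 RPKM) came next, overlapping with Hoxd8. In diaphysis cKO the spread was narrower, and Hoxc10 (6.27 ± 0.70 RPKM), Hoxa10 (4.86 ± 0.32 RPKM) and Hoxc6 (3.11 ± 0.95 RPKM) were separated in that order. In metaphysis cKO Hoxb2 came first with 13.9 ± 2.2 RPKM, overlapping with Hoxc10 (12.1 ± 3.6 RPKM).

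**Figure D1:**
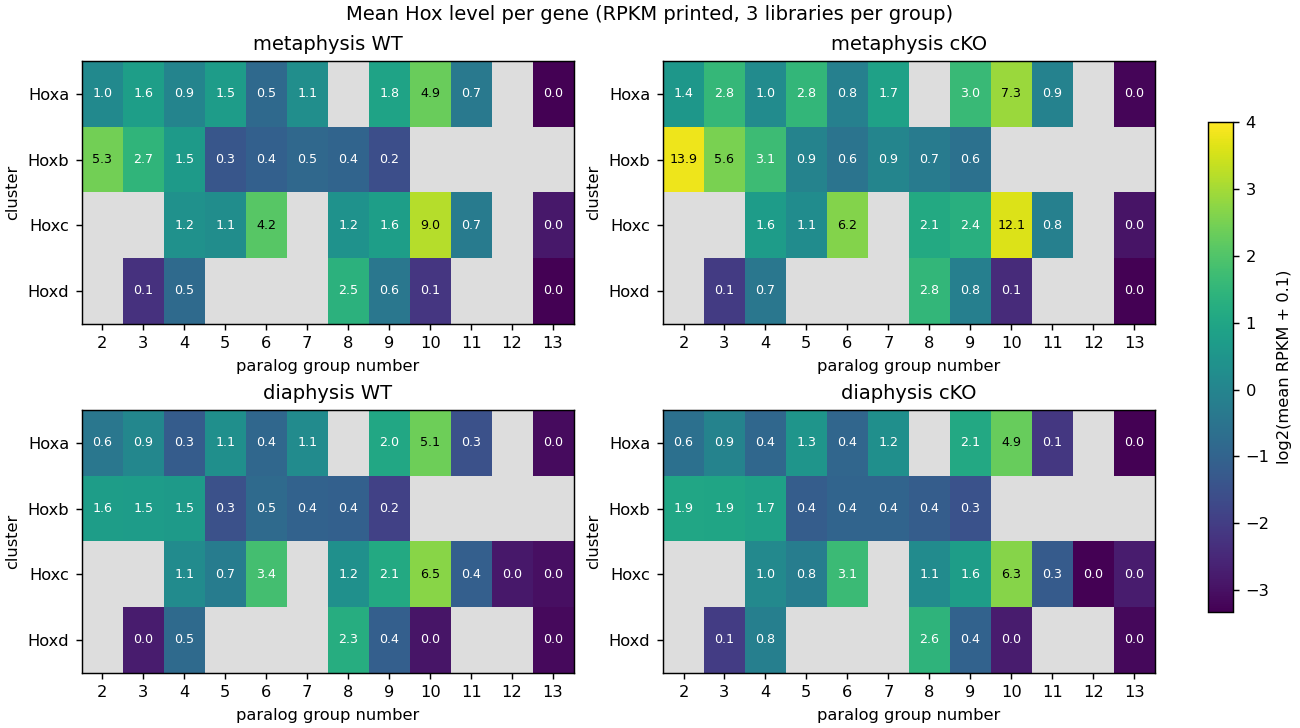
Mean level of Hox genes of paralog groups 2 to 13 in the 4 groups, 3 libraries each, by cluster (rows) and paralog group (columns), with the mean RPKM printed and colour on a log2(mean RPKM + 0.1) scale. Grey cells hold no value. Group 10 stands out in Hoxa and Hoxc, and Hoxb2 goes from 5.3 in metaphysis WT to 13.9 in metaphysis cKO.

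By paralog group, group 10 carried the largest summed level in WT, 13.97 ± 1.8 RPKM in the metaphysis (28.7% of all Hox RPKM) and 11.6 ± 5.5 RPKM in the diaphysis (31.3%). Without diaphysis WT replicate 1 it was 14.05 and 15.3 RPKM there (31.1% and 31.0%). Nearly all of it came from Hoxa10 and Hoxc10, since Hoxd10 averaged 0.121 RPKM in the metaphysis and 0.0340 RPKM in the diaphysis. The level dropped sharply beyond group 10. Group 11, known for patterning the shank, summed to 1.41 ± 0.63 RPKM in WT metaphysis and 0.615 ± 0.273 RPKM in WT diaphysis (0.853 and 0.674 RPKM without replicate 1). Group 13, the hand and foot group, summed to 0.0378 ± 0.0465 and 0.0545 ± 0.0304 RPKM. Hoxd13 was listed at 0 in all 6 metaphysis libraries.

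The Hoxb cluster was uneven. In WT metaphysis Hoxb2, Hoxb3 and Hoxb4, at its 3′ end, averaged 5.32, 2.65 and 1.49 RPKM, while Hoxb5 to Hoxb9 averaged from 0.241 to 0.452 RPKM and Hoxb1 0.108 RPKM. The cluster lies on chromosome 11 (96055630 to 96229570, mm9). The Hoxa cluster is on chromosome 6 (52105366 to 52210874), Hoxc on chromosome 15 (102751534 to 102867274) and Hoxd on chromosome 2 (74506367 to 74603200).

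The first comparison asked which Hox genes differ between cKO and WT in the metaphysis. A set of 7 Hox genes rose in cKO: Hoxb2, Hoxb3, Hoxb4, Hoxa3, Hoxa9, Hoxa10 and Hoxc6. Hoxb2, Hoxb3 and Hoxb4 rose 2.66-fold, 2.10-fold and 2.07-fold, and the other 4 between 1.47-fold and 1.73-fold. No Hox gene fell. The 7 of 17 (41.2%) stand against 7.51% of all 12641 genes tested that were higher at an adjusted p under 0.05, and 0 of 17 against 3.89% lower (limma on log2(RPKM + 0.1), genes reaching 1 RPKM in 3 or more libraries). An unadjusted p under 0.05 was reached by 11 of 17, against 30.6% of all genes. Every cKO library lay above every WT library for 11 of the 17 genes, which holds for 18.7% of all genes. Of the 17, Hoxa2 and Hoxa4 reached 1 RPKM in only 1 WT library and so met the minimum through cKO. With at least 2 WT libraries required to reach it, the count without overlap was 10 of 15, against 18.3% of all genes, and the 7 that rose were all among the 15. The log2 difference was above 0 for all 17, against 45.1% of all genes, though that of Hoxc5 was 0.00 and 1 to 3 genes were below 0 when WT replicate 1, WT replicate 3 or cKO replicate 2 was left out. The median log2 difference was 0.56 over the 17 Hox genes and -0.04 over all genes.

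**Figure D2:**
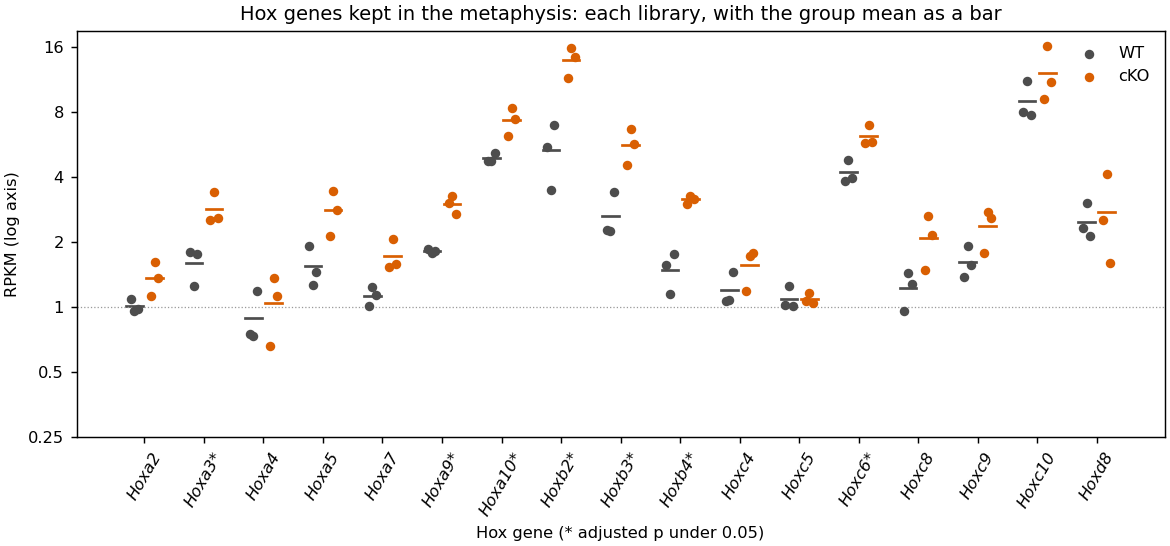
RPKM (log axis) of the 17 Hox genes kept in the metaphysis, each of 3 WT and 3 cKO libraries as a point and the group mean as a bar. The 7 genes with an asterisk have no overlap between WT and cKO, and Hoxb2 shows the largest step.

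All 3 tested genes of the Hoxb cluster rose. Hoxb2 (chromosome 11, 96212946 to 96217003, plus strand, mm9) was at 5.51, 3.46 and 6.99 RPKM in WT and at 11.5, 15.8 and 14.4 RPKM in cKO. The groups were separated by a wide margin, with the lowest cKO library well above the highest WT library. Its log2 difference was 1.41 ± 0.25 (SE; limma, adjusted p = 0.0190). Hoxb3 (96184640 to 96207999), like Hoxb2 a hindbrain gene, was at 2.28, 2.26 and 3.42 RPKM in WT and 4.55, 6.69 and 5.68 RPKM in cKO. Again no libraries overlapped, and the log2 difference was 1.07 ± 0.21 (adjusted p = 0.0237). Hoxb3 has 2 transcripts in the table. One went from 0.359, 0.390 and 1.25 RPKM in WT to 1.65, 2.22 and 1.89 RPKM in cKO, and the other from 1.92, 1.87 and 2.17 RPKM to 2.90, 4.47 and 3.79 RPKM, so neither overlapped. How reads shared by transcripts were divided is not given in the sources used here.

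Hoxb4 (96177998 to 96182952), known for promoting the expansion of blood stem cells, was at 1.57, 1.15 and 1.75 RPKM in WT and at 3.0, 3.28 and 3.17 RPKM in cKO. The cKO libraries were close together and all above WT, with a log2 difference of 1.05 ± 0.18 (adjusted p = 0.0181). The library kit does not mark the strand. The antisense gene Hoxb3os overlaps exons of both Hoxb2 and Hoxb3, so its reads cannot be told apart from theirs there, and Hoxb4 shares exon sequence with Mir10a on its own strand.

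In the Hoxa cluster 3 of 7 tested genes rose. Hoxa3 (chromosome 6, 52113358 to 52163338, minus strand), a gene of neck and throat patterning, was at 1.8, 1.26 and 1.76 RPKM in WT and 2.54, 3.39 and 2.59 RPKM in cKO (log2 difference 0.79 ± 0.20, adjusted p = 0.0469). It shares exon sequence with Hoxa2 and has antisense genes. Hoxa9 (52173099 to 52181088), which acts in limbs and in blood progenitors, was at 1.85, 1.77 and 1.82 RPKM in WT and 3.02, 3.27 and 2.69 RPKM in cKO (0.69 ± 0.14, adjusted p = 0.0253). It shares exon sequence with Mir196b and with other annotated genes on its own strand. Its WT libraries were nearly equal, and the step to cKO was far larger than their spread. Hoxa10 (52181196 to 52190853), a thigh-patterning gene, was at 4.75, 4.73 and 5.15 RPKM in WT and 6.19, 8.36 and 7.41 RPKM in cKO (0.57 ± 0.13, adjusted p = 0.0355). Of its 2 transcripts, the higher went from 3.24, 3.12 and 3.44 to 5.16, 5.35 and 4.48 RPKM without overlap, while the lower overlapped, at 1.51, 1.61 and 1.71 against 1.04, 3.0 and 2.92 RPKM.

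In the Hoxc cluster 1 of 6 tested genes rose, Hoxc6 (chromosome 15, 102828688 to 102842312, plus strand), known from trunk patterning. It was at 3.84, 4.79 and 3.95 RPKM in WT and 5.75, 7.0 and 5.82 RPKM in cKO (log2 difference 0.55 ± 0.13, adjusted p = 0.0417). The gap between the lowest cKO and the highest WT library was about as wide as the range within WT. By cluster the median log2 difference was 0.57 for Hoxa, 1.07 for Hoxb, 0.46 for Hoxc and 0.06 for the single Hoxd gene. A difference between clusters was not tested.

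RefSeq promoter windows, running from 250 bases before to 50 bases after a transcription start (build GRCm38.p6), matched 22 of the Hox symbols with 24 windows. Of the 7 genes that rose, 4 had a window and are shown because they moved together. Hoxb2, Hoxb3 and Hoxc6 had none. The windows are Hoxb4 at chr11:96318017-96318316 on the plus strand, and on the minus strand Hoxa3 at chr6:52213018-52213317, Hoxa9 at chr6:52227321-52227620, and Hoxa10 at chr6:52240805-52241104 (upstream start) and chr6:52234890-52235189 (downstream start). Capitals mark matches, on either strand, to 5 motifs: TAATT, the core read by many homeodomains; TGATNNAT, a Pbx-Hox composite; TATAAA, the TATA box; CCAAT, the CCAAT box; and CACGTG, an E-box.
Hoxb4: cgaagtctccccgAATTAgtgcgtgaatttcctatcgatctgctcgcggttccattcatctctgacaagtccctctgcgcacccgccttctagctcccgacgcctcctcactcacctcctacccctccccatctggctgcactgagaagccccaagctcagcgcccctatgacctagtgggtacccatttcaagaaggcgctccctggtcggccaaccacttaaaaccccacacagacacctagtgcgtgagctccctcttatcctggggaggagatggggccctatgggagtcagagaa
Hoxa3: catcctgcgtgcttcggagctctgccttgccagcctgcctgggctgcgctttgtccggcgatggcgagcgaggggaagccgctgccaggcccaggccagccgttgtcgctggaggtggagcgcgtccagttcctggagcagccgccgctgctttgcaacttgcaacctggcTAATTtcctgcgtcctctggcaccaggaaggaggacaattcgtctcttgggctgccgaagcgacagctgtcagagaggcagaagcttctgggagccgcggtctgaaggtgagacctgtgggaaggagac
Hoxa9: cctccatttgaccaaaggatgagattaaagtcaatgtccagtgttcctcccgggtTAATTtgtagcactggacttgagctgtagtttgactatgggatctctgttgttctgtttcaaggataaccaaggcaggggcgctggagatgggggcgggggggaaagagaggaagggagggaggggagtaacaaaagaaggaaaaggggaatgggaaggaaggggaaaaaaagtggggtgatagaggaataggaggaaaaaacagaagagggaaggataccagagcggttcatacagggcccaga
Hoxa10, upstream start: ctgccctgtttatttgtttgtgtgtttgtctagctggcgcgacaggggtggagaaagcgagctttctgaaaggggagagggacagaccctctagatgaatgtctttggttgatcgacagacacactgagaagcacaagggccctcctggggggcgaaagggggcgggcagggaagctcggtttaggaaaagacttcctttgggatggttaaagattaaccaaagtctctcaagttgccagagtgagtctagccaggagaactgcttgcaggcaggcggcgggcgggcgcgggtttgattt
Hoxa10, downstream start: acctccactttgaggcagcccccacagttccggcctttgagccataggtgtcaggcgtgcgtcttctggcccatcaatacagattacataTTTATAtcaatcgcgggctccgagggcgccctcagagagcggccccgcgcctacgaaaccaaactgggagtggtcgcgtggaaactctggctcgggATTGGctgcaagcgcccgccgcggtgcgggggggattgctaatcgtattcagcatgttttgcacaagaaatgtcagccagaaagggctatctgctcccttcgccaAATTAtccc

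TAATT, or its complement AATTA, occurred once in 4 of these 5 windows, beginning at base 14 in Hoxb4, base 172 in Hoxa3, base 56 in Hoxa9 and base 292 in the downstream Hoxa10 window, where bases are counted from the 5′ end of the window. It was found in 27.0% of all 32544 windows and in 10 of the 24 Hox windows. The downstream Hoxa10 window also held TATAAA at base 91, which 13.6% of all windows hold, and CCAAT at base 187, which 37.4% hold, both on the reverse strand. The upstream Hoxa10 window held none of the 5. TGATNNAT (8.79% of all windows) and CACGTG (7.17%) were in none of these 5 windows.

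The other 10 of the 17 Hox genes did not pass the test in the metaphysis. Hoxa5, known from lung and neck patterning, came nearest, at 1.92, 1.26 and 1.45 RPKM in WT and 2.13, 3.46 and 2.82 RPKM in cKO, with a log2 difference of 0.81 ± 0.23 and an adjusted p of 0.0637 (limma). Hoxc8 (0.71 ± 0.26), Hoxa7 (0.56 ± 0.20) and Hoxa2 (0.40 ± 0.21) had no overlap between groups either, at adjusted p values of 0.114, 0.108 and 0.254. Overlapping groups were seen for Hoxc9 (0.51 ± 0.22), Hoxc10 (0.41 ± 0.23), Hoxc4 (0.35 ± 0.23), Hoxa4 (0.19 ± 0.33), Hoxd8 (0.06 ± 0.33) and Hoxc5 (0.00 ± 0.20). Hoxc10, the highest Hox gene of WT, was at 7.98, 11.2 and 7.78 RPKM in WT and 9.19, 16.1 and 11.1 RPKM in cKO. Hoxd8 was at 2.31, 3.03 and 2.12 against 2.52, 4.15 and 1.60 RPKM, and in cKO held both the highest and the lowest of the 6 values. Hoxc5, at 1.03, 1.24 and 1.01 against 1.06, 1.17 and 1.04 RPKM, had the smallest difference of the 17. Both Hoxc5 and Hoxc10 share exon sequence with Gm20398 on their own strand.

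With the minimum lowered to a mean of 0.3 RPKM over the 6 libraries, 28 Hox genes entered the metaphysis fit and 8 were higher (6.46% of 14179 genes), the eighth being Hoxb5. Hoxb5 was at 0.151, 0.334 and 0.384 RPKM in WT and 0.830, 0.968 and 0.818 RPKM in cKO, below 1 RPKM in every library, with a log2 difference of 1.37 ± 0.32 (limma, adjusted p = 0.0406). An antisense gene overlaps its exons. Hoxb5 and Hoxb9 met this minimum only through cKO, the group where they were higher (WT means 0.289 and 0.241 RPKM, cKO means 0.872 and 0.570 RPKM), so their entry was set by the difference itself and their values are a description. Every cKO library lay above every WT library for 17 of the 28, against 18.1% of all genes. With a WT mean of at least 0.3 RPKM required it was 15 of 26, against 17.9% of all genes, and those 15 held 6 Hoxb genes, Hoxb2, Hoxb3, Hoxb4, Hoxb6, Hoxb7 and Hoxb8. The log2 differences of these 6 ran from 0.56 (Hoxb6) to 1.41 (Hoxb2). Hoxb6, Hoxb7 and Hoxb8 averaged only 0.374, 0.452 and 0.412 RPKM in WT and did not pass (limma, adjusted p = 0.177, 0.0969 and 0.0976). Hoxb7 and Hoxb8 share exon sequence on the same strand, so they are not separate observations. Hoxb9, the gene at the other end of this run, was at 0.224, 0.333 and 0.166 RPKM in WT and 0.580, 0.618 and 0.513 RPKM in cKO (1.00 ± 0.30, adjusted p = 0.0791). The 3 Hoxd genes in the fit, Hoxd4 (0.42 ± 0.31), Hoxd8 and Hoxd9 (-0.13 ± 0.59), all overlapped. The plot of differences along the clusters shows both runs, and a difference between them was not tested.

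**Figure D3:**
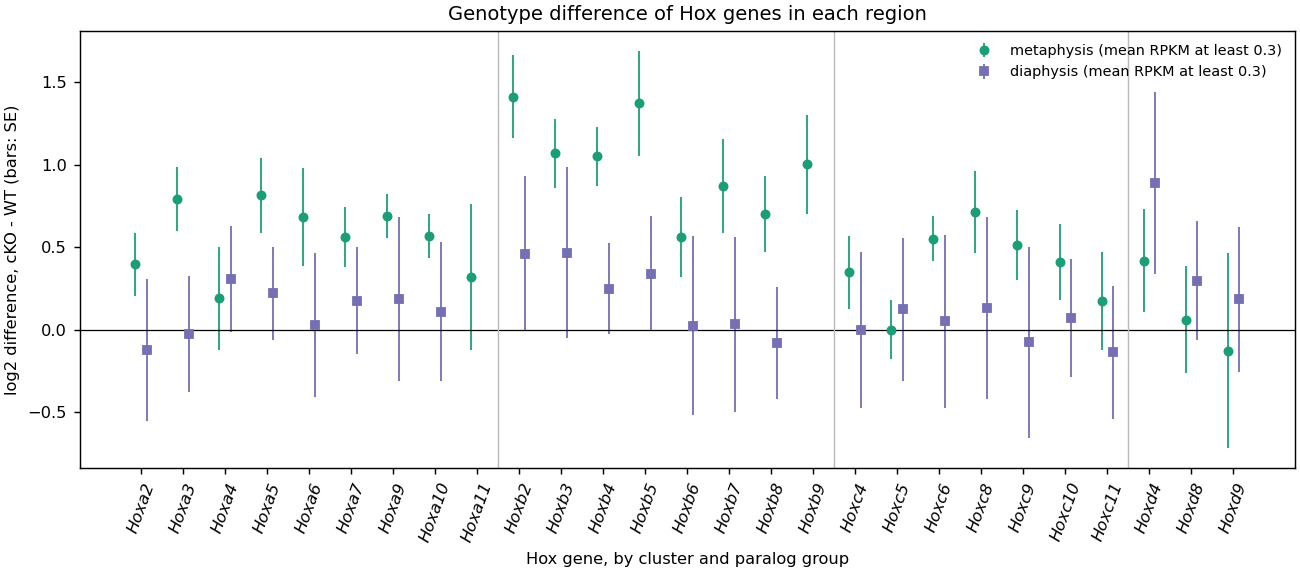
Log2 difference between cKO and WT (points) with its SE (bars) for Hox genes of paralog groups 2 to 13 with a mean of at least 0.3 RPKM, in the metaphysis (circles) and diaphysis (squares), ordered by cluster and paralog group. In the metaphysis the Hoxb genes run from 0.56 to 1.41, Hoxb5 and Hoxb9 having met the minimum only through cKO, and in the diaphysis most bars cross 0.

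The metaphysis calls depended on single libraries. Leaving out one library at a time gave 0 to 6 Hox calls: 0 without WT replicate 1 or cKO replicate 3, 1 without WT replicate 2 (Hoxb2), 3 without WT replicate 3 or cKO replicate 2 (each time Hoxb2, Hoxb3 and Hoxb4), and 6 without cKO replicate 1 (Hoxa5 among them). Hoxb2 was called in 4 of these 6 fits, Hoxb3 and Hoxb4 in 3, Hoxa9 and Hoxa10 in 1, and Hoxa3 and Hoxc6 in 0. The log2 difference of each of the 7 stayed above 0 in all 6. How many of all genes passed in each of these fits is not given here. A loss of calls particular to Hox genes can therefore not be told from a loss over all genes.

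The summed level of all Hox genes was 46.3, 48.7 and 50.9 RPKM in metaphysis WT and 66.2, 95.3 and 76.9 RPKM in metaphysis cKO, every cKO library above every WT library. Hoxb genes took a larger part of that sum in cKO, 33.6 ± 1.9% against 23.3 ± 4.6% (SD, n = 3), with library values of 34.1%, 31.5% and 35.2% against 24.2%, 18.3% and 27.3%. Such a share does not depend on how a library was scaled. Hoxb2 alone took 17.5 ± 1.1% in cKO and 10.9 ± 3.4% in WT, with no overlap (exact 2-sided permutation test p = 0.1, the smallest that 3 against 3 allows). Per Hoxc10, Hoxb2 stood at 1.18 ± 0.17 in cKO and 0.633 ± 0.298 in WT (p = 0.1 in the same exact test, also the smallest). Hoxb2 had the largest difference of the 17 tested Hox genes in these same libraries. Its metaphysis ratios, here and below, therefore describe that rise and are not separate support for it. Hoxc genes took 32.9 ± 0.9% in cKO and 39.2 ± 5.4% in WT.

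**Figure D4:**
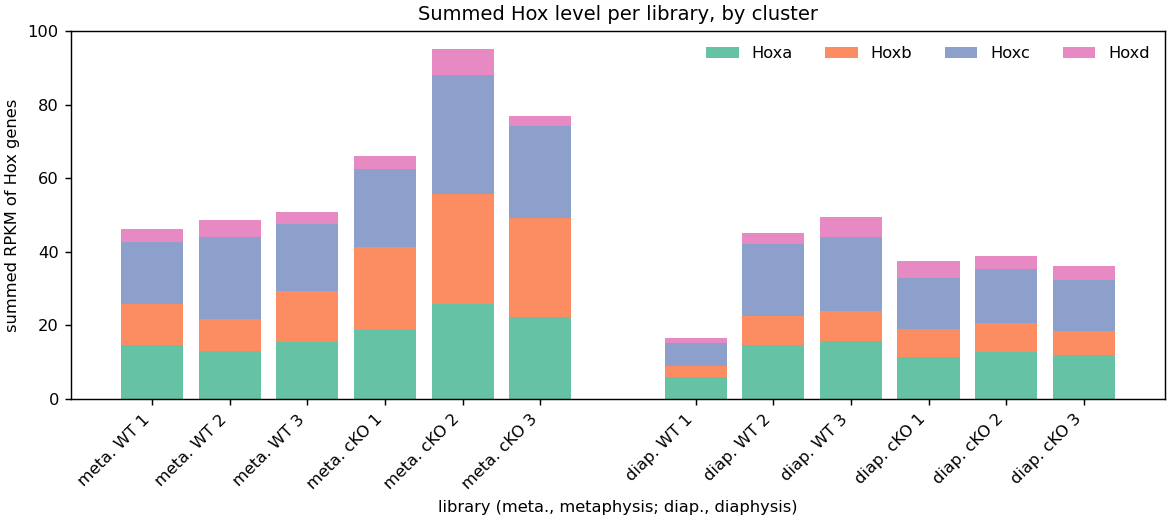
Summed RPKM of all Hox genes in each of the 12 libraries, stacked by cluster. The 3 metaphysis cKO libraries (66.2 to 95.3) lie above the 3 WT libraries (46.3 to 50.9), and diaphysis WT replicate 1 is lowest at 16.7.

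Markers of several cell types also moved in the metaphysis, and those of others did not. In cKO 7 of 10 osteoblast markers were higher, with list sums of 22821 to 24268 RPKM against 14390.0 to 18763 RPKM in WT, as were 7 of 9 chondrocyte markers (1265 to 2019 against 615 to 832 RPKM) and 5 of 6 endothelial markers (143 to 150 against 97.9 to 101 RPKM). Blood lineage lists went down in part, with 4 of 8 B lymphoid markers lower (220 to 272 against 339 to 424 RPKM), 2 of 5 megakaryocyte markers lower (354 to 486 against 592 to 738 RPKM), 2 of 8 erythroid markers lower, and 1 of 8 blood stem and progenitor markers lower (79.3 to 90.1 against 92.8 to 108 RPKM). Among neutrophil markers 0 of 8 passed (7077 to 10131 against 7598 to 12936 RPKM). Of the osteocyte markers 0 of 4 tested passed, with list sums of 393 to 571 against 226 to 352 RPKM. In the remaining lists 1 of 5 tendon and periosteum markers was higher, 1 of 7 skeletal muscle markers lower, and 0 of 6 adipocyte markers passed. Over all genes 7.51% were higher and 3.89% lower. None of these markers was at 0 in any library of the metaphysis. Runx2, a transcription factor of the osteoblast lineage, averaged 14.3 ± 1.6 RPKM over the WT libraries and 27.7 ± 1.5 RPKM over the cKO libraries. Divided by Runx2 in the same library, the summed Hox level was 3.41 ± 0.23 in WT and 2.89 ± 0.65 in cKO, and Hoxb2 was 0.369 ± 0.1 in WT and 0.506 ± 0.102 in cKO (exact permutation test p = 0.3). Divided by Prrx1, a transcription factor of limb mesenchyme, Hoxb2 was 0.285 ± 0.089 in WT and 0.583 ± 0.181 in cKO without overlap (exact p = 0.1), while the summed Hox level overlapped, at 2.61 ± 0.02 in WT and 3.34 ± 1.15 in cKO (exact permutation test p = 0.4). The part of cell composition in the Hox differences was not tested beyond these ratios.

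In the diaphysis no Hox gene passed the test between genotypes, in a fit that called no gene at all. Even Dlx3, the deleted gene, with a log2 difference of -2.52 ± 0.50 and no overlap, had an adjusted p of 1.00, so a Hox difference cannot be read as absent here. Of 13 tested, 0 passed and 0 had an unadjusted p under 0.05, where 0% of all 12540 genes passed and 0.686% had an unadjusted p under 0.05 (limma). WT and cKO libraries overlapped for all 13 genes. The median log2 difference was 0.18 over the Hox genes and 0.00 over all genes, with SEs from 0.29 to 0.58, and 11 of 13 Hox differences were above 0, against 50.7% of all genes. Hoxb2 was at 0.559, 1.83 and 2.33 RPKM in WT and 1.98, 1.91 and 1.83 RPKM in cKO, a log2 difference of 0.46 ± 0.48 (adjusted p = 1.00). Hoxb3 was at 0.488, 1.87 and 2.28 against 1.52, 2.24 and 1.82 RPKM (0.47 ± 0.53). Hoxb4 was at 1.00, 1.86 and 1.60 against 1.74, 1.82 and 1.64 RPKM (0.25 ± 0.29). In each, the cKO libraries lay above WT replicate 1 and overlapped with the other WT libraries.

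The same held for the higher genes of the other clusters. Hoxc10 was at 3.19, 7.84 and 8.32 RPKM in WT and 6.99, 6.22 and 5.6 RPKM in cKO (0.07 ± 0.36). Hoxa10 was at 2.10, 6.14 and 6.98 against 4.5, 4.98 and 5.09 RPKM (0.11 ± 0.42). For both, the cKO values fell between the low and the high WT libraries. Of the remaining genes, Hoxd8 (0.30 ± 0.36), Hoxa5 (0.22 ± 0.31), Hoxa9 (0.19 ± 0.50), Hoxa7 (0.18 ± 0.36), Hoxc8 (0.13 ± 0.57), Hoxc6 (0.05 ± 0.52), Hoxc4 (0.00 ± 0.50) and Hoxc9 (-0.08 ± 0.58) had adjusted p values of 1.00. Without WT replicate 1 the sign turned for most: 2 of 13 differences were above 0 and 11 below, the median went from 0.18 to -0.37, and still 0 passed. With a mean of at least 0.3 RPKM, 25 Hox genes entered and 0 passed. Hoxb5 was then the only 1 of 25 without overlap, at 0.200, 0.275 and 0.287 RPKM in WT and 0.453, 0.287 and 0.310 RPKM in cKO, a pattern that 2.47% of all 14079 genes showed, and it too met the minimum only through cKO.

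**Figure D5:**
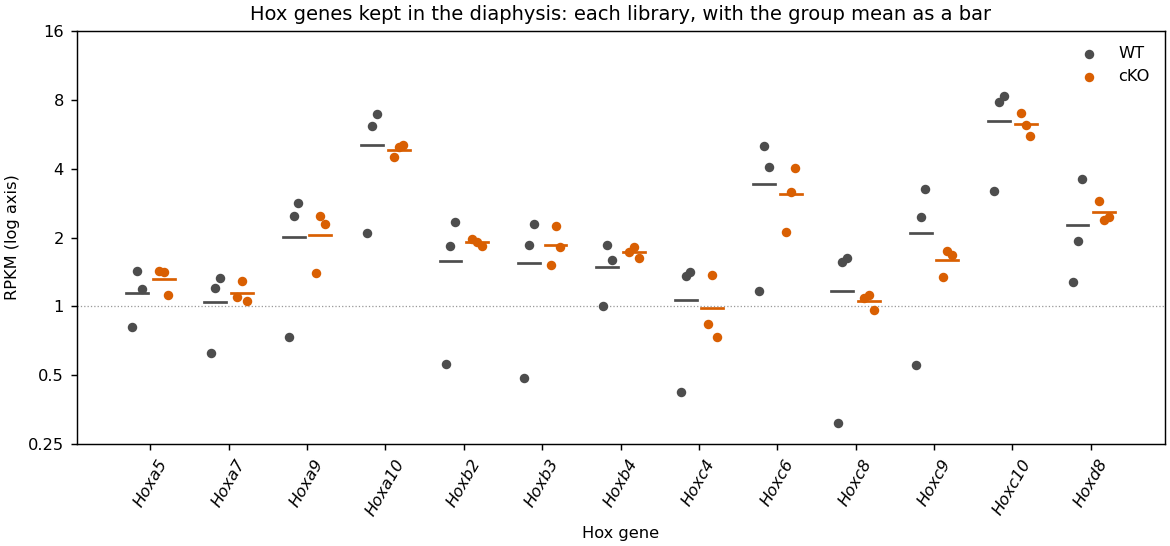
RPKM (log axis) of the 13 Hox genes kept in the diaphysis, each of 3 WT and 3 cKO libraries as a point and the group mean as a bar. Groups overlap for all 13, and WT replicate 1, the left point of each WT group, is the lowest of the 6 libraries.

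Shares within the Hox sum were steadier in the diaphysis than levels. Hoxb genes took 17.2%, 17.2% and 16.7% in WT and 20.4%, 19.9% and 18.4% in cKO, without overlap, WT replicate 1 included. The step was from 17.03 ± 0.32% to 19.6 ± 1.0% (SD, n = 3). The summed Hoxb level itself was 2.87, 7.77 and 8.23 RPKM in WT and 7.63, 7.73 and 6.66 RPKM in cKO. All cKO sums thus lay below WT replicates 2 and 3, as did the sums of all Hox genes (37.5, 38.9 and 36.1 against 45.1 and 49.4 RPKM). The larger Hoxb share is therefore not read as a higher Hoxb level. Hoxb2 took 4.05 ± 0.68% in WT and 5.09 ± 0.18% in cKO, again without overlap (exact permutation test p = 0.1, the smallest possible).

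Whether the genotype difference itself differed between regions was tested for the 13 Hox genes kept in both. None passed, where 0% of 12321 genes did (limma contrast), and 1 of 13 had an unadjusted p under 0.05, against 4.02% of all genes. In 12 of 13 the difference was larger in the metaphysis, against 45.7% of all genes. The gene with the low unadjusted p was Hoxb4, whose difference was larger in the metaphysis by 0.80 ± 0.33 on the log2 scale (adjusted p = 0.908). For Hoxb2 it was larger by 0.95 ± 0.58 (adjusted p = 0.908) and for Hoxb3 by 0.60 ± 0.61 (adjusted p = 0.910). A rise in the metaphysis only was thus not shown. Without diaphysis WT replicate 1, Hoxa10 and Hoxb2 passed, both at an adjusted p of 0.0493 (limma contrast). The diaphysis differences of Hoxa10 and Hoxb2 were then below 0, at -0.43 and -0.11, so each contrast holds a lower diaphysis value as well as the metaphysis rise. How many of all genes passed in that fit is not given here, so nothing particular to these 2 genes is read from it.

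WT levels of the regions can only be set side by side, since the tables were made separately. Chondrocyte markers summed to 615 to 832 RPKM in WT metaphysis and 42.1 to 197 RPKM in WT diaphysis. The part of cartilage in the Hox levels of the regions was not tested. Hoxb2 averaged 5.32 RPKM in the metaphysis and 1.58 RPKM in the diaphysis, 3.38 times as much. Hoxa4 averaged 0.891 and 0.342 RPKM, and Hoxa3 1.60 and 0.942 RPKM. These were the 3 of 17 kept genes whose metaphysis WT libraries all lay above all diaphysis WT libraries, against 12% of all 12859 genes kept in either region. Wholly below lay 0 of 17, against 12.2%. Hoxa3 and Hoxa4 were kept in the metaphysis only, so they entered the 17 through the region where they were higher. Hoxb2 alone of the 3 was kept in both regions. Without diaphysis WT replicate 1, an alternative chosen after seeing the data, the same 3 lay above (19.3% of all genes), with Hoxb2 at 2.55 times the diaphysis mean. Then 4 of 17 lay wholly below, Hoxa9, Hoxa10, Hoxc8 and Hoxc9, against 25.9% of all genes. Hoxa10 was at 4.73 to 5.15 RPKM in the metaphysis and at 6.14 and 6.98 RPKM in those 2 diaphysis libraries, and Hoxa9 at 1.77 to 1.85 against 2.48 and 2.83 RPKM. With replicate 1 included their means were 4.88 and 5.07 RPKM for Hoxa10 and 1.82 and 2.01 RPKM for Hoxa9.

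The Hoxb cluster lies on the chromosome of the targeted gene. In mm9 Hoxb13 begins 1.07 Mb and Hoxb2 1.23 Mb beyond the end of Dlx3 (94981403 to 94986610). Of the 12 tested genes between Dlx3 and Hoxb13, not counting Dlx4, which lies next to Dlx3 and rose, Abi3 and Phospho1 were higher in metaphysis cKO, Fam117a was lower, and the median log2 difference was -0.03 against -0.04 over all genes. Within 1 Mb of each cluster, Hox genes left out, 3 of 28 tested genes were higher and 1 lower around Hoxb, 1 of 6 higher and 1 lower around Hoxa, 4 of 35 higher and 2 lower around Hoxc, and 0 of 6 either way around Hoxd. Over all genes 7.51% were higher and 3.89% lower, and nothing particular to these windows is read from counts this small. Whether sequence linked to Dlx3 on the mixed background differs between the genotypes was not tested.

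Hox proteins bind DNA together with Pbx, Meis and Pknox cofactors. Of 6 cofactors tested in the metaphysis, Meis3 rose, from 5.12, 4.03 and 4.99 RPKM to 9.95, 12.1 and 11.1 RPKM, a log2 difference of 1.22 ± 0.13 (limma, adjusted p = 0.00907), and it was called in all 6 fits that leave out a library. The others did not pass, among them Pbx2, the highest cofactor, with 26.3 ± 1.9 RPKM for WT and 24.4 ± 1.7 RPKM for cKO, and Pknox1 at 8.36 ± 0.84 and 7.43 ± 0.33 RPKM. The cofactor list as a whole had a median log2 difference of -0.07.

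Polycomb proteins keep Hox genes silent and trithorax proteins keep them active. Of 22 such regulators tested in the metaphysis, 2 rose and 2 fell, against 7.51% and 3.89% of all genes. The 4 are given as single genes, not as a result about the list. Ezh2 and Suz12, subunits of the complex that methylates histone H3, fell by 0.67 and 0.50 on the log2 scale (adjusted p = 0.0337 and 0.0346, limma), from 37.6 ± 1.3 to 23.9 ± 4.8 RPKM and from 29.4 ± 1.3 to 20.9 ± 2.7 RPKM. Pcgf2 and Phc2, subunits of the other main Polycomb complex, rose by 0.52 and 0.48 (adjusted p = 0.0232 and 0.0300), from 3.63 ± 0.18 to 5.26 ± 0.17 RPKM and from 29.8 ± 2.9 to 41.4 ± 2.8 RPKM. Each of these 4 was called in only 1 or 2 of the 6 fits that leave out a library. The list's median difference was 0.00.

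Of 7 limb patterning factors tested in the metaphysis 0 passed, with a median log2 difference of 0.56. Prrx1 averaged 18.6 ± 1.0 RPKM over WT and 24.7 ± 4.2 RPKM over cKO libraries, Twist1 at 10.3 ± 0.9 and 14.2 ± 2.4 RPKM and Shox2 at 6.54 ± 2.54 and 10.8 ± 1.4 RPKM. Of the Dlx family, a separate set of homeobox genes, Dlx4, Dlx5 and Dlx6 rose by 2.37, 1.38 and 1.59 and Dlx3 fell by 1.75 (adjusted p from 0.00462 to 0.0178). Of 15 noncoding RNAs of the Hox clusters, 3 were in the metaphysis table and none reached the minimum for testing, the highest being Hoxa11as, with 0.510 ± 0.094 RPKM for WT and 0.811 ± 0.407 RPKM for cKO. In the diaphysis 0 members of these lists passed.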

How the data were processed

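Per the labels' protocols, RNA was taken with Trizol from the diaphysis and metaphysis of femurs, followed by library preparation with the TruSeq RNA kit. The authors deposited 1 table per region with RPKM per RefSeq transcript and library, per the file headers. Partek 6.6, Bowtie 0.12.7.0, TopHat 1.3.2, CASAVA 1.8.2 and the build mm9 are listed per the submitters' processing notes, with roles not given in the sources used here. Deposited values were not counts, so the count test that the design had fixed for counts was replaced by limma.

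Transcripts were summed per symbol. Genes with at least 1 RPKM in 3 of 6 libraries of a region were fitted as log2(RPKM + 0.1), a scale that understates fold changes of low genes, with a mean-variance trend in limma 3.58.1, run in R 4.3.3, 2-sided, with Benjamini-Hochberg adjustment over all genes and a threshold of 0.05. The regions were compared only through a contrast of their genotype differences. The fit was tested on simulated data, but only with planted changes larger than any Hox difference reported here. It was thus not checked at the size of the Hox differences. Gene positions are from GENCODE on the mm9 assembly. Summaries used Python 3.11.15 with pandas 2.3.3 and numpy 2.4.6, and figures matplotlib 3.10.9.

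Groups came from the labels, and replicate numbers follow record order and pair nothing. Depth was read from the spacing of the lowest values. With these totals 70.7% to 76.1% of low values were within 0.1 of a whole read, too few to rebuild counts. Alternatives were other pseudocounts (0.5 and 1), filters, scalings and transcript choices, a shared spread, and leaving out each library. Named genes were every Hox gene kept or called, Dlx3, and of 5 gene lists the members past the threshold and up to 3 highest. Abi3, Phospho1, Fam117a and Hoxb9 were named after their values were seen. Members and lists were chosen with earlier results of these data known. A single item is not reported here by name, though counts and sums include it.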

Additional observations from a re-analysis of the deposited data

How the results depend on the processing

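Of the metaphysis Hox genes, 7 were called, against 2 with no minimum level and 0 with the spread shared by all 12 libraries, and between 0 and 6 when 1 library was left out. Pseudocounts of 0.5 or 1, an equal upper quartile and limma without the trend gave 7. A mean of at least 0.3 RPKM gave 8, with Hoxb5 meeting that minimum only through cKO. The highest transcript per symbol gave 6, and rescaling to a total without globin 5. Over all genes 7.51% were higher in the main metaphysis fit and 6.46% with the 0.3 RPKM minimum. Such shares are not given here for the other metaphysis alternatives, so their Hox counts are a description. The diaphysis gave 0 Hox calls under every alternative run. The count of Hox genes whose difference differed between regions was 0, and ran from 0 to 2 when 1 library was left out. The 2 came without diaphysis WT replicate 1, where the count over all genes is not given here. The number of Hox genes reaching 1 RPKM was 16 to 18 in the metaphysis and 13 to 15 in the diaphysis. The count of kept Hox genes lying wholly higher in WT diaphysis than in WT metaphysis went from 0 to 4 without diaphysis WT replicate 1, and the count wholly lower was 3 both ways. The cause of these changes was not tested. No paired analysis was possible because the labels give no replicate numbers that groups share. Genes under 1 RPKM rest on few reads where a library is shallow, and 3 libraries per group limit every test.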

Other observations

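Muscle RNA varied between libraries of the metaphysis. The summed level of 7 skeletal muscle markers was 4835, 7302 and 4893 RPKM in WT and 2570, 8116 and 2112 RPKM in cKO. In each genotype replicate 2 had the highest muscle sum. It held the highest value of its group for 7 of the 17 kept Hox genes in WT (Hoxc10 and Hoxd8 among them) and for 16 of 17 in cKO, where its Hox sum was also highest, at 95.3 RPKM against 66.2 and 76.9 RPKM. In cKO replicate 2 Hoxd9 was at 1.72 RPKM, against 0.403 and 0.241 RPKM in the other cKO libraries and 0.776, 0.671 and 0.502 RPKM in WT. WT replicate 2 held the lowest Hoxb2 of its group, 3.46 RPKM, whereas cKO replicate 2 held the highest, 15.8 RPKM. The part of muscle RNA in these levels was not tested. For how many of all genes replicate 2 was highest is not given here. Nothing particular to Hox genes is therefore read from the counts of 7 and 16 of 17.

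Gm53, a noncoding gene between Hoxb13 and Hoxb9 that was picked after its values were seen, was at 0, 0.0466 and 0.118 RPKM in metaphysis WT and 0.588, 0.248 and 0.359 RPKM in metaphysis cKO. In the diaphysis it was at 0, 0 and 0.0518 RPKM in WT and 0.0870, 0.0401 and 0.119 RPKM in cKO. It was below the minimum for testing in both regions, and only the metaphysis groups were without overlap.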
